A study of Mus musculus with 8 samples.

Results

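The 32 lysosomal genes described here encode cathepsins and other lysosomal enzymes, lysosomal membrane proteins, cholesterol transporters, proton pump subunits, a calcium channel and a transcription factor of lysosomal genes. They were chosen by name from what their proteins are known to do, though earlier results of these data had been seen by then. Each was read from its brightest detected array probe. All 32 were measured, among 29586 genes and unnamed features tested, 16732 of them with a gene symbol.

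The cells were the adherent, passaged fraction of collagenase-digested abdominal subcutaneous fat, labelled by the study as adipose tissue derived mesenchymal stem cells. The donors were male C57BL/6 mice that entered the experiment at 6 weeks of age. Their 4 groups were a 60% fat diet for 12 weeks (HF12), control chow for 12 weeks (C12), the 60% fat diet for 24 weeks (HF24) and control chow for 24 weeks (C24), with 2 arrays each. Whether the arrays of a group stem from different animals or cultures is not stated in the labels. The p-values therefore measure spread among arrays alone, and that spread may be technical.

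Lysosomes are acidic organelles that break down proteins, glycans, lipids and whole organelles delivered by endocytosis, phagocytosis and autophagy. A proton pump of many subunits, the V-ATPase, keeps them acidic, cathepsins cut proteins, glycosidases and lipid hydrolases take apart sugars and lipids, and NPC2 and NPC1 pass the released cholesterol out. The transcription factors TFEB and TFE3 raise many of these genes through a short palindromic element called CLEAR. In fat, macrophages that take up lipid from adipocytes are known for a high lysosome content.

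Each value below is a scaled log2 intensity: the log2 brightness of the probe minus the 75th percentile of all probes on that array. A gene was called where its adjusted p in limma was under 0.05, and changes are log2 differences ± SE. Levels of different genes are not compared, because probes differ in brightness. All 32 probes were well above background on all 8 arrays. Across the arrays 57.6 to 67.2% of probes were well above background, and arrays of the same group correlated at 0.995 to 0.998 across probes (0.955 to 0.985 between groups). All 13 tested markers of mesenchymal stromal cells were well above background in every group. The 12-week arrays filled slide row 1 and the 24-week arrays row 2, and the chow and high-fat arrays filled different slide columns. Slide position and group therefore cannot be told apart.

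Lysosomal genes were higher after 12 weeks of high-fat diet. Of the 32 members, 17 were called higher in HF12 than in C12, against 13.6% of all genes tested, and 3 were called lower, against 17.4%. Their median log2 change was 0.28, while that of all genes was −0.03. The 8 members that rose at least 2-fold were the lysosomal membrane proteins Laptm5 and Cd68, the proteases Ctss and Ctsc, the pump subunit Atp6v0d2, the lipase Lipa, the sphingolipid cofactor Psap and the glucuronidase Gusb. Ctsk, Gaa and Lamp2 fell, each by less than 2-fold. The second probes of Gaa and Lamp2 did not share this call, as described below. In 28 of the 32 members no HF12 array overlapped a C12 array, which was also so for 68.4% of all genes tested.

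**Figure D1:**
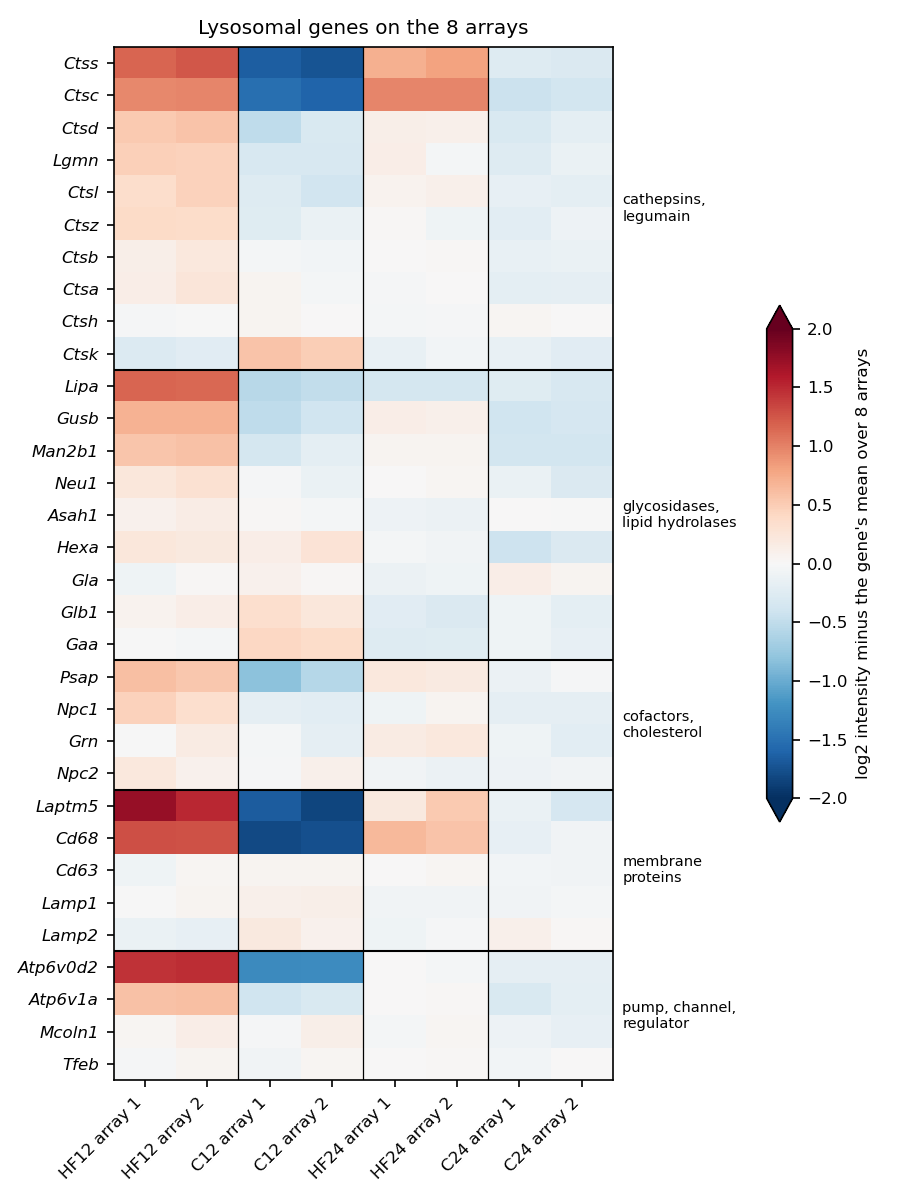
Scaled log2 intensity of the 32 lysosomal genes (rows, grouped by role and ordered within a role by the 12-week diet difference) on each of the 8 arrays (columns), shown as the difference from the gene's own mean over the arrays. HF12 had the highest mean of the 4 groups for 22 members and C12 the lowest for 15. Colours saturate at 2 log2 units in either direction.

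Among the cathepsins and legumain, 7 of 10 members rose in HF12 and 1 fell. Ctss, a cysteine protease that trims the invariant chain of MHC class II, read 8.06 and 8.13 in HF12, against 5.25 and 5.16 in C12. It rose 7.42-fold (2.89 ± 0.07, adjusted p = 2.61e-06). Its 2 high-fat arrays lay far above both chow arrays at 12 weeks. Ctsc, the dipeptidyl peptidase that activates granule serine proteases, read 3.07 and 3.08 in HF12, against 0.59 and 0.50 in C12, a rise of 5.76-fold (2.53 ± 0.06, adjusted p = 2.61e-06).

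The other cathepsins that rose moved less. Ctsd, the aspartic protease, read 8.31 and 8.36 in HF12 and 7.27 and 7.48 in C12 (0.96 ± 0.09, adjusted p = 0.000599). Lgmn, the asparaginyl endopeptidase legumain that processes cathepsins, read 6.75 and 6.74 in HF12 and 5.95 on both C12 arrays (0.80 ± 0.08, adjusted p = 0.000917). Ctsl, a cysteine endopeptidase, read 7.93 and 8.04 in HF12 and 7.33 and 7.20 in C12 (0.73 ± 0.07, adjusted p = 0.000863). In all 3 genes the HF12 arrays stood above the C12 arrays by more than the spread within either group. Ctsz, a carboxypeptidase, rose by 0.57 ± 0.07 (adjusted p = 0.00237). Ctsb, another cysteine cathepsin, read 8.21 and 8.30 in HF12 against 8.05 and 8.03 in C12. Its change of 0.22 ± 0.06 passed narrowly (adjusted p = 0.0343) and was not called when any single array was left out; over the 11 settings that lost this call the adjusted p lay between 0.059 and 0.151.

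Ctsk moved the other way. This collagen-degrading cathepsin, best known from osteoclasts and also made by fibroblasts, read 6.55 and 6.60 in HF12, against 7.39 and 7.32 in C12, and fell 1.71-fold (−0.78 ± 0.07, adjusted p = 0.000463). Ctsa, the carboxypeptidase that protects galactosidase and sialidase, read 7.31 and 7.41 in HF12 against 7.23 and 7.14 in C12 and was not called (0.18 ± 0.06, adjusted p = 0.0861). Ctsh, an aminopeptidase, spanned only 6.65 to 6.74 over all 8 arrays and was called in no comparison.

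Glycosidases and lipid hydrolases were split, with 4 of 9 higher and 1 lower in HF12. Lipa, the acid lipase that frees cholesterol and fatty acids from esters taken up by the cell, read 4.05 and 4.03 in HF12, against 2.33 and 2.39 in C12. That is a 3.20-fold rise (1.68 ± 0.06, adjusted p = 1.04e-05). Neither 24-week group came near the HF12 level of Lipa: its readings were 2.53 and 2.54 in HF24, against 2.65 and 2.56 in C24.

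Gusb, β-glucuronidase, read 4.95 on both HF12 arrays and 3.74 and 3.86 in C12, a 2.22-fold rise (1.15 ± 0.06, adjusted p = 7.42e-05). Man2b1, the acid α-mannosidase of glycoprotein breakdown, read 4.50 and 4.53 in HF12 against 3.59 and 3.75 in C12 (0.85 ± 0.07, adjusted p = 0.000317). Neu1, the lysosomal sialidase, changed by 0.35 ± 0.08 (adjusted p = 0.0203), and this call was lost without C12 array 2, HF12 array 1 or HF12 array 2. Gaa, the α-glucosidase that degrades glycogen, read 6.28 and 6.25 in HF12, against 6.70 and 6.65 in C12, and fell 1.33-fold (−0.41 ± 0.06, adjusted p = 0.00325). Hexa (0.01 ± 0.07), Asah1 (0.13 ± 0.06), Gla (−0.09 ± 0.07) and Glb1 (−0.18 ± 0.07), which encode enzymes for gangliosides, ceramide, globosides and β-galactosides, were not called at 12 weeks.

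Of the 4 cofactors and cholesterol transporters, 2 rose. Psap, the precursor of the saposins that present sphingolipids to their hydrolases, read 7.11 and 7.05 in HF12, against 5.70 and 5.95 in C12, and rose 2.38-fold (1.25 ± 0.10, adjusted p = 0.000289). Npc1, the membrane protein that exports cholesterol from the lysosome, read 3.91 and 3.80 in HF12 against 3.27 and 3.24 in C12 (0.60 ± 0.07, adjusted p = 0.00178). Its soluble partner Npc2 changed by 0.11 ± 0.07 (adjusted p = 0.304), with array ranges that overlapped. Grn, the precursor of the granulins, changed by 0.19 ± 0.09 on its brightest probe (adjusted p = 0.17), and its 3 probes did not give the same result, as described below.

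Membrane proteins held both the members that changed most and some that hardly moved. Laptm5, a lysosomal transmembrane protein of haematopoietic cells, read 2.88 and 2.64 in HF12, against −0.53 and −0.70 in C12. Its 10.4-fold rise was the largest of the 32 (3.38 ± 0.15, adjusted p = 2.87e-05). Cd68, the heavily glycosylated macrosialin used as a macrophage marker, read 6.47 and 6.46 in HF12, against 3.38 and 3.43 in C12, and rose 8.33-fold (3.06 ± 0.06, adjusted p = 1.86e-06). A second Cd68 probe gave 3.25.

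The abundant structural glycoproteins of the lysosomal membrane did not rise with these. Lamp1 read 8.00 and 8.07 in HF12 against 8.12 and 8.13 in C12 (−0.09 ± 0.05, adjusted p = 0.246). Cd63, a tetraspanin of late endosomes and lysosomes, read 8.38 and 8.51 in HF12 against 8.52 and 8.53 in C12 (−0.08 ± 0.06, adjusted p = 0.4). Neither difference passed the test. Lamp2, read on its brighter probe, fell 1.22-fold (−0.29 ± 0.07, adjusted p = 0.0243), and this call was lost without C12 array 1, HF12 array 1 or HF12 array 2.

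The proton pump subunits rose, the calcium channel did not, and the result for Tfeb depended on the probe. Atp6v0d2, a V-ATPase subunit found in osteoclasts and macrophages, read 3.04 and 3.06 in HF12, against 0.31 and 0.33 in C12, a 6.63-fold rise (2.73 ± 0.05, adjusted p = 1.86e-06). A second probe of Atp6v0d2 gave 2.85. Atp6v1a, the catalytic subunit of every V-ATPase, read 4.67 and 4.69 in HF12 against 3.70 and 3.79 in C12, and rose 1.92-fold (0.94 ± 0.07, adjusted p = 0.000194). Mcoln1, the lysosomal calcium channel that activates calcineurin upstream of TFEB, changed by 0.04 ± 0.07 (adjusted p = 0.699). Tfeb changed by 0.03 ± 0.06 on its brightest probe (adjusted p = 0.724), a reading that its dimmer probes did not share.

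**Figure D2:**
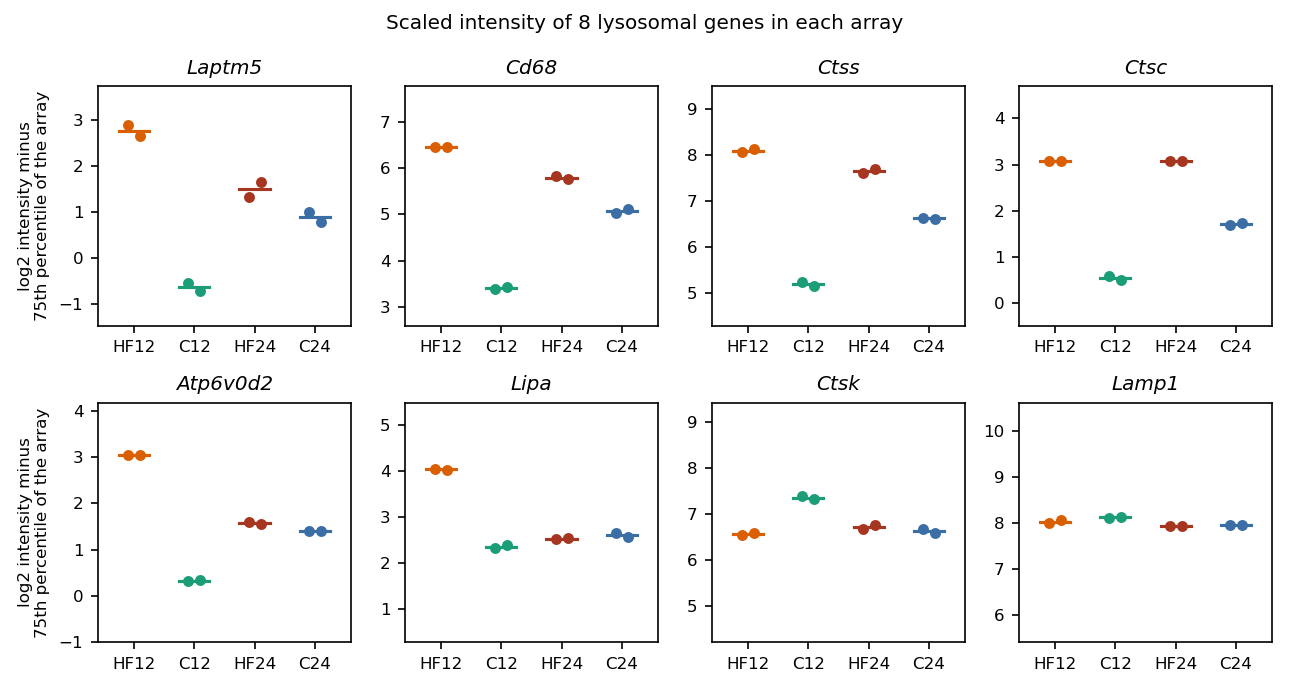
Scaled log2 intensity (vertical axis, the same span in every panel) of 8 lysosomal genes on each array (points) with the group mean (bars). Laptm5, Cd68, Ctss, Ctsc, Atp6v0d2 and Lipa stood highest or level with the highest in HF12 and lowest in C12, Ctsk stood highest in C12, and Lamp1 varied little.

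Promoter windows of the members were searched for motifs of 2 kinds of regulator that this biology brings to mind: the CLEAR core TCACGTGA, with the E-box core CACGTG that lies within it, and GAGGAAGT, a core bound by PU.1, the myeloid ETS factor encoded by Spi1. Each RefSeq window runs from 250 bases before to 50 bases after an annotated start on GRCm38.p6. Windows were at hand for 27 of the 32 members; Ctsb, Ctsh, Asah1, Npc1 and Atp6v0d2 had none. On either strand, TCACGTGA was found in 5 of the 27 members (18.5%), against 1.12% of 27025 genes with a window. As CLEAR is known from lysosomal genes, the choice of members favours this motif. CACGTG was found in 10 members (37.0%), against 8.09% of genes, and GAGGAAGT in 4 members (14.8%), against 3.69%. The windows below are those with either 8-base motif, since they set members that rose beside members that did not. They are written 5′ to 3′ on the gene's own strand, with every match of the 3 motifs in capitals (GAGGAAGT read on the opposite strand appears as its reverse complement).
Ctss, chr3:95526536-95526835, plus strand: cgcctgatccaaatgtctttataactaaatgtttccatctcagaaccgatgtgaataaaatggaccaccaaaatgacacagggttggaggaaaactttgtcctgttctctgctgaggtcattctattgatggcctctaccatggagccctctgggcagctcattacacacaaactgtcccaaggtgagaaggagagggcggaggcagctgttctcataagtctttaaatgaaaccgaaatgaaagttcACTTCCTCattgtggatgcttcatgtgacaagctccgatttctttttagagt
Ctsc, chr7:88277835-88278134, plus strand: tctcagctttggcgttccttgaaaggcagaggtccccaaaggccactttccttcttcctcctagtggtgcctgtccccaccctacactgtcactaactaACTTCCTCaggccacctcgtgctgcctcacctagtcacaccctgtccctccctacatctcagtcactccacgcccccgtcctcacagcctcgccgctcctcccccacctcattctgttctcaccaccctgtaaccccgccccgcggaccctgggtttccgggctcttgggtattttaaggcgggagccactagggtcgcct
Gusb, chr5:130003000-130003299, minus strand: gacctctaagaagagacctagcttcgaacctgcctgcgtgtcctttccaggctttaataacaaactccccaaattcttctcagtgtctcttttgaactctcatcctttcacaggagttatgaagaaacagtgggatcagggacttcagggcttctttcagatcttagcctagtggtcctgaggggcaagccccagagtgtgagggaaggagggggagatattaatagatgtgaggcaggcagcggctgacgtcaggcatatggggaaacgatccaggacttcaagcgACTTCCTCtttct
Ctsd, chr7:142387778-142388077, minus strand: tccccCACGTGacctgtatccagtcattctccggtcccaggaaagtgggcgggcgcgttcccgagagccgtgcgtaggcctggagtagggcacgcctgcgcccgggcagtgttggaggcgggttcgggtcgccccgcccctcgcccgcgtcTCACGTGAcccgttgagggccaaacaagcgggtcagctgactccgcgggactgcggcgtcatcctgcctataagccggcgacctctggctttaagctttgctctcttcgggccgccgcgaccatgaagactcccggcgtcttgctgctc
Atp6v1a, chr16:44139210-44139509, minus strand: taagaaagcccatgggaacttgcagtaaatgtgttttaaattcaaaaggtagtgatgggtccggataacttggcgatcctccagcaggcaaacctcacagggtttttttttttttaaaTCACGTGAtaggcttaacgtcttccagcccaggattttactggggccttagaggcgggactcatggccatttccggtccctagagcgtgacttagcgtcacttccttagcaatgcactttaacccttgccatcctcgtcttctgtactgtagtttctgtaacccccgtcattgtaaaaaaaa
Ctsa, chr2:164833523-164833822, plus strand: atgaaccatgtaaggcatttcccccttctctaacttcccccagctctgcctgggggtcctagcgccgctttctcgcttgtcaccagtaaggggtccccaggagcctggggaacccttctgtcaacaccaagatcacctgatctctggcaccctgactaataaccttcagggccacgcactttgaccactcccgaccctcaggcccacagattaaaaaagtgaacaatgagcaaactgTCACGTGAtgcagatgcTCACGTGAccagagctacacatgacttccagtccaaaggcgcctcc
Mcoln1, chr8:3500269-3500568, plus strand: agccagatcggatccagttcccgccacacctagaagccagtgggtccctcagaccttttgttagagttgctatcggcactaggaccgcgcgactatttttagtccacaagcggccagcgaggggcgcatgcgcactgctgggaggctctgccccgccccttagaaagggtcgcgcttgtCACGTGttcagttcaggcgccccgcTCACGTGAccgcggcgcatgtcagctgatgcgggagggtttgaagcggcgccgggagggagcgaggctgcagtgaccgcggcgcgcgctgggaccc
Gla, chrX:134600956-134601255, minus strand: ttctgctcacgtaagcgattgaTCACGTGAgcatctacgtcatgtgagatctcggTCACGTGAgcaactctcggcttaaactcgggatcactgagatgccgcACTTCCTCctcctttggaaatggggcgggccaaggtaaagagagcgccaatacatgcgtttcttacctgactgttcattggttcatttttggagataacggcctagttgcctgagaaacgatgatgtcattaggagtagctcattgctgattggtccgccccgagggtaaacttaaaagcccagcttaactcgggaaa

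Of the 5 members with TCACGTGA, Ctsd and Atp6v1a were called higher in HF12, while Ctsa, Mcoln1 and Gla were not called. Ctsa, shown here with the window of its 2 that held the motif, and Gla had 2 copies each. Of the 4 members with GAGGAAGT, Ctss, Ctsc and Gusb rose at least 2-fold in HF12 and Gla was not called. Counted from the annotated start, the match began at −2 in Ctss, −151 in Ctsc, −148 in Gla and 38 in Gusb. Lamp1 held 4 copies of CACGTG and was not called at 12 weeks. The windows of Laptm5, Cd68, Lipa and Psap held none of the 3 motifs. A match describes these letters only, and whether a factor binds there was not measured.

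Other lysosomal genes outside the 32 were read from lists of the same pathway. Of 16 further V-ATPase subunits, 12 were called higher in HF12 and none lower, beside 13.6% and 17.4% of all genes tested. Their median was 0.41. Tcirg1, the pump's a3 subunit of osteoclasts and macrophages, rose by 1.37 ± 0.05 (adjusted p = 1.3e-05), and the subunits Atp6v0a1, Atp6v1c1 and Atp6v1f rose by 0.89, 0.85 and 0.65. Of 16 further membrane and transport proteins, 7 rose and none fell. Among them Mcoln2, a relative of Mcoln1, rose by 1.48 ± 0.09 (adjusted p = 0.00012) and Gpnmb, a glycoprotein of phagocytes with loaded lysosomes, by 1.43 ± 0.07 (adjusted p = 4.46e-05).

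Further soluble hydrolases moved both ways: 6 of 24 rose and 4 fell, beside 13.6% and 17.4% of all genes, 14 were not called, and their median was 0.04. Galc, the galactosylceramidase, rose by 1.40 ± 0.11 (adjusted p = 0.000318) and Galns, a sulfatase of keratan sulfate, by 0.90 ± 0.11 (adjusted p = 0.00167). Of 10 genes that sort enzymes to the lysosome, 4 rose, among them the mannose 6-phosphate receptor M6pr (0.47 ± 0.06), and 2 fell, among them Sort1 (−1.03 ± 0.10, adjusted p = 0.000741), the sorting receptor sortilin. Of 14 MiT/TFE factors and lysosomal mTORC1 regulators, 2 were called, both higher: Tfec, a myeloid relative of Tfeb, by 3.13 ± 0.12 (adjusted p = 1.34e-05) and Tfe3 by 0.39 ± 0.05 (adjusted p = 0.00322). Of 5 cathepsin inhibitors, Cst7 rose by 1.58 ± 0.24 and Cstb by 0.53 ± 0.07, and Cst6 fell (−0.72 ± 0.05). Cst7 was well above background on only 1 C12 array, so the size of its rise is uncertain.

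Macrophage markers moved with the lysosomal genes. Of 18 markers, 17 were called higher in HF12 than in C12 and none lower, with a median of 3.59. Their summed linear level, with each array's 75th percentile set to 1, was 374 to 376 in HF12 and 69.2 to 71.0 in C12, and it was 284 to 287 in HF24 and 138 to 143 in C24. Cx3cr1, a chemokine receptor of monocytes and macrophages, was not well above background on either array of C12 or C24. Csf1r, the receptor for the macrophage growth factor, rose by 1.88 ± 0.05 and Adgre1, which encodes F4/80, by 3.67 ± 0.09 in HF12. In RNA from a mixed culture, more or fewer cells of a type and more or less of an RNA per cell cannot be told apart, and the part of macrophage content in the lysosomal differences was not tested.

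Markers of other cell types moved as well. The summed level of 7 osteoclast markers was 29.6 to 33.0 in HF12 and 28.2 to 30.2 in C12, and 24.0 to 24.4 in HF24 and 10.7 to 11.8 in C24. Of these 7, Dcstamp (2.97 ± 0.26), Mmp9 (2.11 ± 0.20) and Nfatc1 (0.52 ± 0.06) were called higher in HF12 than in C12, while the bright Acp5 was not called (0.07 ± 0.09). Mmp9 was well above background on only 1 C12 array, so the size of its rise is uncertain. In HF24 against C24, Acp5 was called higher (1.31 ± 0.09) and Nfatc1 lower (−0.50 ± 0.06). For 10 mature adipocyte markers the sum was 136 to 142 in HF12 and 878 to 884 in C12, and 56.2 to 58.3 in HF24 and 51.6 to 52.6 in C24. The near-level sums at 24 weeks hide single markers: 6 were called lower in HF24 than in C24, among them Plin1 (−1.57 ± 0.09), and 1 higher. Adipoq, Cfd, Lipe and Retn were not well above background on either HF24 array. For 13 mesenchymal stromal markers the sum lay between 1460 and 1620 on all arrays, but single markers moved: 3 were called higher in HF12 than in C12, among them Alcam (1.88 ± 0.09), and 5 lower, among them Nt5e (−3.30 ± 0.09) and Lum (−1.92 ± 0.10). In HF24 against C24, 1 was called higher and 4 lower. For 8 endothelial markers the sum was 12.2 to 12.3 in HF12 and 13.0 to 13.2 in C12, and 32.7 to 33.5 in HF24 and 22.3 to 23.3 in C24. For 6 markers of skeletal muscle it was 79.5 to 84.7 in HF12 and 112 to 116 in C12, and 8.63 to 8.72 in HF24 and 38.1 to 39.0 in C24. The sum of 5 keratinocyte markers was 4.45 to 4.49 in HF12 and 4.43 to 4.62 in C12, and 3.6 to 3.88 in HF24 and 8.67 to 8.77 in C24. That of 4 Schwann cell markers was 2.87 to 2.93 in HF12 and 3.06 to 3.21 in C12, and 1.23 in HF24 and 2.87 to 3.04 in C24. The sum of 5 lymphocyte markers lay between 3.83 and 4.70 over all arrays. None of the 5 was called in HF12 against C12, but 1, Cd3d, was called higher in HF24 than in C24 (0.95 ± 0.07). The part of these other cell types in the lysosomal differences was not tested either.

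After 24 weeks fewer lysosomal genes differed between the diets, and by less. Of the 32 members, 11 were called higher in HF24 than in C24, against 15.1% of all genes tested, and none was called lower, against 19.0%. The median change was 0.16, and that of all genes was 0.02. Only Ctsc and Ctss passed 2-fold. In 31 of the 32 members the HF24 arrays did not overlap the C24 arrays, as in 70.8% of all genes tested. Scaling each array to its median gave 69.2% of all calls as higher, against 44.2% under the 75th percentile, and 23 members higher. It moved the median of all genes to 0.17, and that of the members to 0.31.

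Ctsc kept the largest diet difference at 24 weeks. It read 3.08 on both HF24 arrays, against 1.68 and 1.74 in C24, and was 2.58-fold higher (1.36 ± 0.06, adjusted p = 9.16e-05). Ctss read 7.60 and 7.70 in HF24, against 6.64 and 6.61 in C24, and was 2.04-fold higher (1.03 ± 0.07, adjusted p = 0.000259). Cd68 read 5.83 and 5.76 in HF24, against 5.02 and 5.11 in C24 (0.73 ± 0.06, adjusted p = 0.000554). Each of these genes separated the diets by more than its arrays differed within a group.

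Laptm5 read 1.33 and 1.66 in HF24, against 1.00 and 0.79 in C24, and passed with a wider error (0.60 ± 0.15, adjusted p = 0.0263). Without HF24 array 2 or C24 array 2 it did not pass (adjusted p = 0.0992 and 0.109). Gusb (0.49 ± 0.06, adjusted p = 0.00263), Man2b1 (0.42 ± 0.07, adjusted p = 0.0051), Ctsd (0.37 ± 0.09, adjusted p = 0.0222), Ctsl (0.27 ± 0.07, adjusted p = 0.0343) and Atp6v1a (0.27 ± 0.07, adjusted p = 0.0252) were also higher. Of these, Gusb and Man2b1 kept their call when any single array was left out, while Ctsd and Atp6v1a lost it without C24 array 1 or either HF24 array, and Ctsl without any 1 of the HF24 and C24 arrays.

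Hexa, and Grn on its brightest probe, were called at 24 weeks but not at 12. Hexa, which encodes an enzyme of ganglioside breakdown, read 5.34 and 5.31 in HF24 against 4.97 and 5.09 in C24 (0.30 ± 0.07, adjusted p = 0.0248), and was not called without C24 array 1, HF24 array 1 or HF24 array 2 (adjusted p = 0.117, 0.112 and 0.0801). Grn read 7.93 and 7.98 in HF24 against 7.69 and 7.56 in C24 (0.33 ± 0.09, adjusted p = 0.039), with no call when any array of HF24 or C24 was left out. The diet difference of neither Hexa nor Grn was shown to differ between the feeding times (interaction adjusted p = 0.0882 and 0.478).

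The other 21 members were not called at 24 weeks, with changes between −0.19 (Gla) and 0.26 (Psap). Lipa (−0.08 ± 0.06, adjusted p = 0.364) and Atp6v0d2 (0.16 ± 0.05, adjusted p = 0.0553) were among them. So were Gaa and Tfeb, although the second probe of each was called, Gaa lower (−0.37 ± 0.09) and Tfeb higher (0.43 ± 0.10). Of the further lists, 2 of 16 V-ATPase subunits were called higher and none lower (Tcirg1, 0.24 ± 0.05, and Atp6v1g1, 0.24 ± 0.06). The shares over all genes tested were 15.1% and 19.0%, so the higher count of pump subunits lay near the background. Of 24 further hydrolases, 7 were higher and 2 lower. Tfec was 0.97 ± 0.12 higher (adjusted p = 0.00182). Of the 18 macrophage markers, 13 were higher in HF24 than in C24 and 1, Itgam, was lower, with a median of 0.99.

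**Figure D3:**
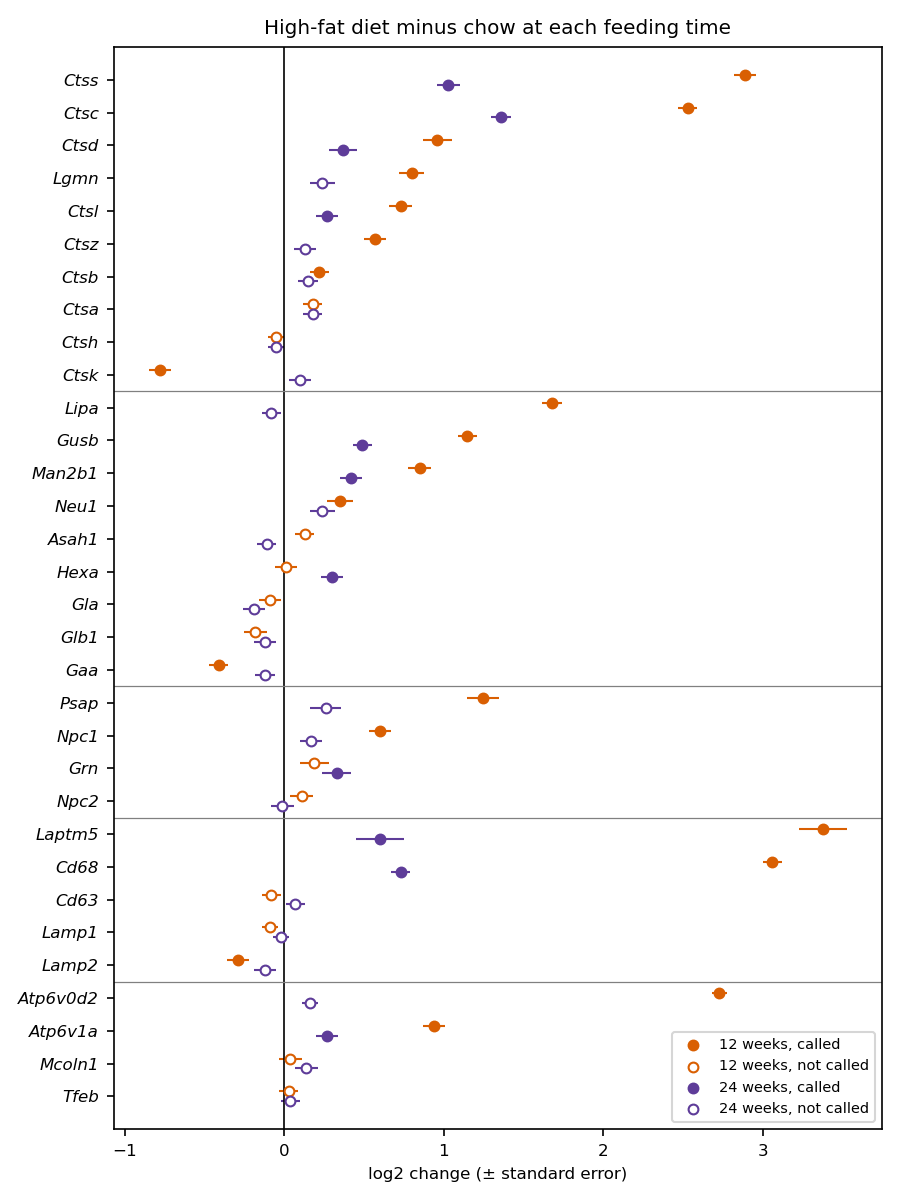
Log2 change ± SE (horizontal axis) of each lysosomal gene between high-fat diet and chow after 12 weeks (HF12 minus C12, orange) and after 24 weeks (HF24 minus C24, purple), grouped by role. Filled points were called at an adjusted p under 0.05. At 12 weeks the changes ran from −0.78 to 3.38, and at 24 weeks from −0.19 to 1.36.

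Across the feeding times, 9 members were called higher on the high-fat diet at both: Ctsc, Ctss, Ctsd, Ctsl, Gusb, Man2b1, Laptm5, Cd68 and Atp6v1a. The 24-week calls on Ctsd, Ctsl, Laptm5 and Atp6v1a were lost without certain single arrays, as given above. The share of all genes called higher at both times is not given here. Another 8 were called higher at 12 weeks only, namely Ctsb, Ctsz, Lgmn, Lipa, Neu1, Npc1, Psap and Atp6v0d2. A call at 1 time and not at the other is no test of the difference, so the 24-week diet difference was set against the 12-week one directly, as (HF24 minus C24) minus (HF12 minus C12).

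The diet difference of 15 members was smaller at 24 than at 12 weeks in this interaction test, against 16.0% of all genes with a negative call, and that of 2 was positive, against 13.9%. The median was −0.18 for the members and −0.01 for all genes. Laptm5 gave −2.77 ± 0.21 (adjusted p = 0.000452), Atp6v0d2 −2.57 ± 0.07 (adjusted p = 4.43e-05) and Cd68 −2.33 ± 0.09 (adjusted p = 5.21e-05). Ctss (−1.86 ± 0.09), Lipa (−1.75 ± 0.08) and Ctsc (−1.16 ± 0.08) also lost more than 1 log2 unit of their diet difference.

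Smaller losses were called for Psap (−0.99), Atp6v1a (−0.67), Gusb (−0.66), Ctsd (−0.59), Lgmn (−0.56), Ctsl (−0.46), Ctsz (−0.44), Npc1 (−0.43) and Man2b1 (−0.43). Several of these rested on single arrays. The interaction call was lost for Ctsd without HF12 array 2, for Lgmn without either HF12 array, and for Ctsl without HF12 array 2, C24 array 1 or either HF24 array. It was lost for Ctsz without C12 array 1, either HF12 array, C24 array 2 or HF24 array 2. It was lost for Npc1 without either C12 array, HF12 array 1, either C24 array or HF24 array 1, and for Man2b1 when any 1 array of HF12, HF24 or C24 was left out. Ctsk (0.87 ± 0.09, adjusted p = 0.00155) and Gaa (0.29 ± 0.08, adjusted p = 0.0408), which were lower in HF12 than in C12, had no called diet difference at 24 weeks. The interaction call on Gaa was lost when any single array was left out. The second Gaa probe differed: it was called lower in HF24 than in C24 (−0.37 ± 0.09, adjusted p = 0.0272), and its interaction was not called (−0.19 ± 0.13, adjusted p = 0.324). Ctsb and Neu1, though called at 12 weeks only, did not pass the interaction (−0.06 ± 0.08 and −0.11 ± 0.11). Of 18 macrophage markers, 17 gave a negative interaction and none a positive one. Under median scaling 10 members had a negative and 4 a positive interaction call, with Ctsl, Ctsz, Npc1, Lgmn and Man2b1 no longer called. In that scaling 65.3% of all interaction calls were positive, against 46.6%, and the median of all genes was 0.14.

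On chow, a few lysosomal genes were much higher at the later time and several hydrolases were lower. Of the 32 members, 7 were called higher in C24 than in C12, against 23.9% of all genes tested, and 6 lower, against 22.2%, so the members' shares lay near the background. The median change was 0.00. Cd68 read 5.02 and 5.11 in C24, against 3.38 and 3.43 in C12, and was 3.16-fold higher (1.66 ± 0.06, adjusted p = 1.69e-05). Laptm5 (1.51 ± 0.15), Ctss (1.42 ± 0.07), Ctsc (1.16 ± 0.06) and Atp6v0d2 (1.09 ± 0.05) were each more than 2-fold higher as well, and Psap (0.62 ± 0.10) and Lipa (0.24 ± 0.06) less so. The call on Lipa was lost without C12 array 1 or C24 array 1. Of the 18 macrophage markers, 15 were higher in C24 than in C12 and 1 was lower, with a median of 1.84.

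Ctsk read 6.67 and 6.59 in C24, against 7.39 and 7.32 in C12, and was 1.66-fold lower (−0.73 ± 0.07, adjusted p = 0.000438). Hexa (−0.56 ± 0.07, adjusted p = 0.00172), Gaa (−0.52 ± 0.06, adjusted p = 0.000838) and Glb1 (−0.42 ± 0.07, adjusted p = 0.00478) were lower in C24 too. Tested on their own, the second probes of Gaa (−0.11 ± 0.09, adjusted p = 0.392) and Glb1 (−0.07 ± 0.09, adjusted p = 0.525) were not called. Ctsa (−0.20 ± 0.06) and Lamp1 (−0.16 ± 0.05) passed narrowly, at adjusted p of 0.0438 and 0.0493. Ctsa lost this call when any array but C12 array 2 was left out, and Lamp1 when any array was. Among the further hydrolases 9 of 24 were lower and none higher, beside 22.2% and 23.9% of all genes tested. Ctso, a cathepsin, led them (−0.91 ± 0.07, adjusted p = 0.000173). Sort1 was lower by the most of the sorting genes (−2.43 ± 0.10, adjusted p = 2.17e-05).

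On the high-fat diet lysosomal genes were lower at the later time. Of the 32 members, 21 were called lower in HF24 than in HF12, against 24.4% of all genes tested, and none higher, against 22.5%. Their median was −0.26, and that of all genes −0.01. Lipa read 2.53 and 2.54 in HF24, against 4.05 and 4.03 in HF12, and was 2.85-fold lower (−1.51 ± 0.06, adjusted p = 2.49e-05). Atp6v0d2 read 1.59 and 1.55 in HF24, against 3.04 and 3.06 in HF12, and was 2.78-fold lower (−1.48 ± 0.05, adjusted p = 1.81e-05). Laptm5 was 2.41-fold lower (−1.27 ± 0.15, adjusted p = 0.00136), and no other member passed 2-fold.

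Cd68 (−0.67 ± 0.06), Gusb (−0.58 ± 0.06), Atp6v1a (−0.58 ± 0.07), Man2b1 (−0.52 ± 0.07), Ctss (−0.45 ± 0.07), Ctsd (−0.44 ± 0.09), Lgmn (−0.43 ± 0.08), Npc1 (−0.42 ± 0.07) and Ctsz (−0.41 ± 0.07) followed. The changes of Psap, Glb1, Ctsl, Hexa, Npc2, Neu1, Gaa, Asah1 and Ctsa lay between −0.37 and −0.20, and all 9 lost the call without HF12 array 2 and without HF24 array 2. Ctsc, in contrast to Ctss, was level on the high-fat diet, at 3.08 on both HF24 arrays and 3.07 and 3.08 in HF12 (0.00 ± 0.06, adjusted p = 0.976). Ctsk also differed little between the times on this diet (0.15 ± 0.07, adjusted p = 0.122).

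The count for the high-fat diet depended on single arrays and on the scaling. It was 12 without HF12 array 2, 13 without HF24 array 1 and 12 without HF24 array 2. Scaling each array to its median gave 12 lower and 3 higher, with 65.2% of all calls higher against 48.0% and a median of all genes of 0.13. Of the 18 macrophage markers, 12 were lower and 3 higher in HF24 than in HF12, with a median of −0.50. Among the further lists 12 of 24 hydrolases, 7 of 16 V-ATPase subunits and 8 of 16 membrane and transport proteins were lower, and 1, 1 and 2 were higher. Of all genes tested, 24.4% were called lower and 22.5% higher. Gpnmb (−1.12 ± 0.07) and Atp6v0a1 (−1.15 ± 0.06) led the membrane proteins and the pump subunits.

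Of the members, 4 were called lower with time on both diets: Ctsa, Hexa, Gaa and Glb1. Both calls on Ctsa were narrow (adjusted p = 0.0438 on chow and 0.0454 on the high-fat diet). On chow the second probes of Gaa and Glb1 did not share the call, as given above. The share of all genes called in both comparisons is not given here, so the joint counts have no background beside them. The 6 that were higher with time on chow and lower with time on the high-fat diet were Ctss, Lipa, Laptm5, Psap, Cd68 and Atp6v0d2. The interaction is also the time change on the high-fat diet minus that on chow. Its negative sign in these 6 therefore follows from how they were picked. The means of Ctss, Laptm5, Psap, Cd68 and Atp6v0d2 were ordered C12, C24, HF24 and HF12 from low to high, though HF24 and C24 did not differ by the test for Psap and Atp6v0d2. Lipa followed the same order except that C24 stood slightly above HF24, a difference that did not pass either.

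**Figure D4:**
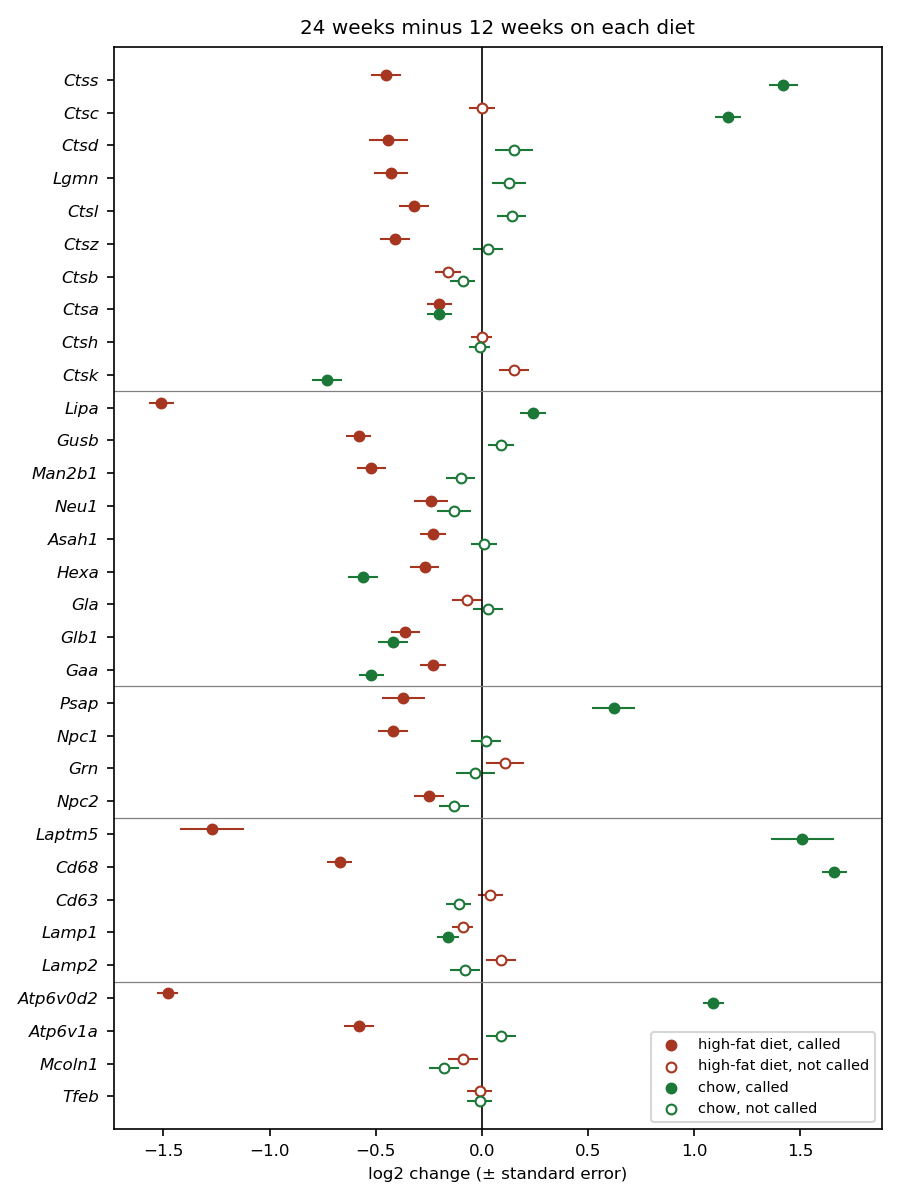
Log2 change ± SE (horizontal axis) of each lysosomal gene between 24 and 12 weeks of feeding, on the high-fat diet (HF24 minus HF12, dark red) and on chow (C24 minus C12, green), grouped by role. Filled points were called at an adjusted p under 0.05. On the high-fat diet the changes ran from −1.51 to 0.15, and on chow from −0.73 to 1.66.

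For 10 of the 32 members more than 1 probe was detected, and for 5 of these the probes differed in their 12-week diet call when each of the 37650 detected probes was tested on its own. Grn showed the widest gap. Its brightest probe read 7.76 and 7.94 in HF12, against 7.73 and 7.59 in C12, whereas its second probe read 7.78 and 7.34 in HF12, against 5.17 and 5.12 in C12. The second probe rose by 2.41 ± 0.22 (adjusted p = 0.000613) and the third by 0.61 ± 0.12 (adjusted p = 0.0149). All 3 probes are annotated to the same transcript. The second probe was the odd one in C12 alone: it read 7.75 and 7.51 in HF24, against 7.31 and 7.85 in C24.

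The brightest Tfeb probe matches a predicted transcript and was flat, at −0.57 and −0.50 in HF12 against −0.62 and −0.51 in C12. The other 3 detected Tfeb probes match curated transcripts, and all rose in HF12. The second by brightness read −1.11 and −1.07 in HF12, against −2.12 and −1.87 in C12 (0.90 ± 0.10, adjusted p = 0.00125), and the other two changed by 0.44 ± 0.08 (adjusted p = 0.0119) and 0.51 ± 0.14 (adjusted p = 0.0386). On these 3 probes Tfeb was also called lower in HF24 than in HF12, with changes of −0.68, −0.33 and −0.46 in the same order. The call on Tfeb therefore rests on which probe stands for the gene.

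Lamp2 encodes splice forms with different tails, and its 2 detected probes match different transcripts. In HF12 against C12 the brighter probe was lower (−0.29 ± 0.07, adjusted p = 0.0258), and the dimmer was higher, at 4.08 and 4.02 in HF12 against 3.74 and 3.83 in C12 (0.26 ± 0.07, adjusted p = 0.0348). The second Asah1 probe rose by 0.33 ± 0.08 at 12 weeks (adjusted p = 0.0288), and the second Gaa probe was not called there (−0.18 ± 0.09, adjusted p = 0.196). Cd68, Atp6v0d2, Ctsh, Lamp1 and Glb1 had several probes that shared their 12-week call.

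**Figure D5:**
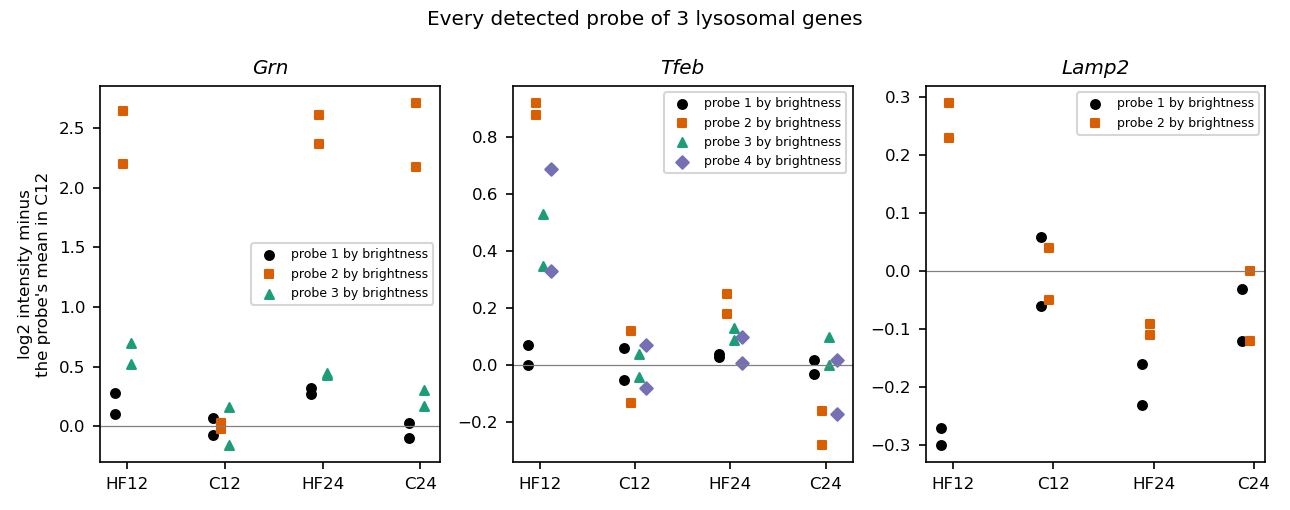
Log2 intensity of every detected probe of Grn, Tfeb and Lamp2 on each array (points), as the difference from that probe's own mean in C12 (vertical axis, with a scale of its own in each panel). Probes are numbered by brightness. The second Grn probe lay 2.41 above its C12 mean in HF12 while the first lay 0.19 above it, and the 2 Lamp2 probes moved in opposite directions in HF12.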

How the data were processed

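Total RNA labelled with Cy3 was hybridised to 8 Agilent 1-colour arrays on 1 slide, with 2 arrays in each of the 4 groups. The deposited scanner files, from Agilent Feature Extraction 11.0.1.1 per the file headers, hold background-subtracted processed intensity. The authors also deposited a table of log2 values, whose differences from the log2 processed signal were constant within each array (−9.99 to −9.79). Its direction and scale are thus known, while the choice of those constants is not given in the sources used here. Its column medians were −1.44 to −1.33.

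Of 62976 spots, 59305 were not controls, and outlier spots were left out, which removed 192 of 56605 probes. No spot was saturated. The log2 processed intensity was averaged over spots of a probe and reduced by the array's 75th percentile. The 37650 probes well above background on both arrays of at least 1 group were kept, and the brightest probe stood for each gene. Of the 56413 probes used, 32907 (58.3%) matched 1 symbol in the RefSeq table of GRCm38.p6.

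A model with a mean for each group was fitted to all 8 arrays with limma 3.58.1 (R 4.3.3; 4 residual and 1.9 prior degrees of freedom), with two-sided tests and Benjamini-Hochberg adjustment over 29586 features. The steps were tested on simulated data. Summaries were made in Python 3.11.15 with pandas 2.3.3 and matplotlib 3.10.9.

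All members were named. From each further list up to 4 called genes per comparison with the smallest p were eligible, and every gene that a count of 5 or fewer singles out. The members, lists and tests were chosen with earlier results of these data known. Csf1r, Adgre1 and Cx3cr1 were named as common macrophage markers after their values were seen.

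Alternatives were normexp (offset 50, on the median spot signal), quantile or median scaling, the 75th percentile over spots (chosen after seeing the data), the authors' log2 table, other filters on dim probes, the mean over probes, an intensity trend, the compared groups alone, a replicate block and leaving out each array. Deviations of same-numbered arrays from their group means correlated at −0.082 to 0.166, so the numbers were not taken to pair arrays. The number of arrays limits the precision.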

Additional observations from a re-analysis of the deposited data

Results flagged for a closer look

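For 17 lysosomal genes the diet difference itself differed between the feeding times, by the interaction term (HF24 minus C24) minus (HF12 minus C12) in limma at an adjusted p under 0.05. The interaction was −2.77 for Laptm5, −2.57 for Atp6v0d2, −2.33 for Cd68, −1.86 for Ctss, −1.75 for Lipa and −1.16 for Ctsc. It was −0.99 for Psap, −0.67 for Atp6v1a, −0.66 for Gusb, −0.59 for Ctsd, −0.56 for Lgmn, −0.46 for Ctsl and −0.44 for Ctsz. Npc1 and Man2b1 each gave −0.43. In these 15 genes the high-fat arrays stood further above the chow arrays at 12 than at 24 weeks, except that the Lipa difference at 24 weeks was −0.08 and not called. The interaction was positive for Ctsk (0.87) and Gaa (0.29), both lower in HF12 than in C12. The second Gaa probe gave −0.19 and was not called. The calls on Ctsd, Lgmn, Ctsl, Ctsz, Npc1, Man2b1 and Gaa were each lost when certain single arrays were left out, and median scaling gave 10 negative calls in place of 15. With 2 arrays a group, no array could be tested as standing apart within its group.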

How the results depend on the processing

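The 12-week diet counts of 17 higher and 3 lower members lay between 15 and 20 and between 2 and 4 over the alternatives, and leaving out single arrays gave 15 to 16 higher and 2 to 3 lower. The number of genes called in that comparison, 9165 of 29586, depended on arrays more and was 5398 to 8720 with single arrays left out: 5965 without C12 array 1, 5398 without HF12 array 1 and 5860 without HF12 array 2.

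The 24-week diet count of 11 higher was 6 with quantile normalization, 23 with median scaling, 5 without a filter on dim probes, 17 with an intensity trend and 7 with only the groups compared. Leaving out arrays gave 6 to 12, with 6 without C24 array 1, HF24 array 1 or HF24 array 2. The count of 0 lower became 3 with normexp, 2 with quantile normalization and 1 each with the percentile over spots, the mean over probes and an intensity trend.

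For C24 minus C12 the 6 lower became 10 with quantile normalization, and arrays left out gave 4 to 5 lower and 6 to 7 higher. For HF24 minus HF12 median scaling gave 12 lower and 3 higher in place of 21 and 0, and arrays left out gave 12 to 20 lower. The 2 positive interactions became 1 with normexp, the percentile over spots, no filter, the mean over probes or the replicate block, and 4 with median scaling. The 15 negative interactions became 10 with median scaling, and arrays left out gave 1 to 1 positive and 10 to 14 negative ones. The cause was not tested.

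With the mean over all detected probes, Grn reversed to 0.88 for C24 minus C12 (adjusted p = 0.000611) and −0.88 for the interaction (adjusted p = 0.00402), since its second probe then enters the mean. That setting gave a median member change of 0.52 at 12 weeks.

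With the replicate number as a block, the higher and lower counts were 16 and 3 for HF12 minus C12, 9 and 0 for HF24 minus C24, 7 and 4 for C24 minus C12, 0 and 18 for HF24 minus HF12, and 1 and 15 for the interaction. Over all settings, whether a single member was called, and in which direction, was unchanged in 581 cases at 12 weeks, while 6 gained and 21 lost the call. Changes that were not called may have switched sign among these. At 24 weeks 536 cases were unchanged in the same sense, 32 gained and 40 lost the call.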
